A study of Oryza sativa with 12 samples.

Results

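Flag leaves of rice (Oryza sativa) left without water were compared between plants carrying PSARK::IPT and wild-type plants. The comparison used 6 of the 12 arrays of the study, chosen by their labels alone: 3 labelled as PSARK::IPT without water (written IPT_stressed) and 3 labelled as wild type without water (WT_stressed). All plants were 10 weeks old, grew in a controlled greenhouse and lost their water supply for 3 days at the pre-anthesis stage, before the flowers open. The labels call the 3 replicates of each group biological. The other 6 arrays, 3 of each labelled genotype under full watering (IPT_watered and WT_watered), share none of these samples. They entered the common estimate of the spread and are set beside the genes described here.

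PSARK is a promoter of a senescence-associated receptor kinase gene and is active mainly in maturing and stressed tissue. The gene it drives, IPT, encodes isopentenyltransferase, the enzyme that starts cytokinin synthesis. Cytokinins are plant hormones that delay leaf senescence, and they are perceived by histidine kinases that pass phosphate through phosphotransfer proteins to response regulators. Cytokinin dehydrogenases (CKX) break them down, and LOG-family enzymes release the active free bases. The background strain, the number of transgenic lines and how many plants went into each sample are not given in the labels. The annotation used names no probe set for the introduced IPT gene, so its level was not analysed here.

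Values are on a log2 scale, on which a difference of 1 is a factor of 2, and each array holds 57194 tested probe sets. The mean over these probe sets was 4.16 on every array, whereas their standard deviation was 1.91 to 1.97 on the WT_stressed arrays and 2.20 to 2.22 on the IPT_stressed arrays. The Bio spike-ins, bacterial transcripts added to every hybridization, averaged 11.8 ± 0.26 (SD, n = 3) in WT_stressed and 8.45 ± 0.29 in IPT_stressed. The GAPDH probe set at the 3' end exceeded that at the 5' end by 6.34 to 7.30 in WT_stressed and by 3.34 to 4.29 in IPT_stressed. The groups do not overlap in any of these 3 measures. Reporter probe sets for foreign sequences go against a simple reading of the labels, since RPTR-Os-K01193-1_at read 8.71 to 9.19 in WT_stressed and 9.86 to 10.4 in IPT_stressed but only 1.99 to 2.15 in IPT_watered. Every direction below is therefore one between arrays as labelled.

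Position along the transcript marked the difference between the groups in all 4 control transcripts. For GAPDH, a glycolytic enzyme, the 3' probe set read 11.5, 11.4 and 11.1 in WT_stressed and 11.8, 11.5 and 11.7 in IPT_stressed, and these ranges meet. Its 5' probe set read 5.18, 4.34 and 3.78 against 7.53, 8.20 and 7.79, well apart. The difference, IPT_stressed minus WT_stressed, was 0.37 at the 3' end, 2.44 in the middle and 3.41 at the 5' end of GAPDH. For actin it was 0.57, 2.09 and 2.33, for cyclophilin 0.14, 1.03 and 1.78, and for ubiquitin 0.10, 2.11 and 2.14, in the same order. The part these measures play in the gene differences below was not tested, and in this design they cannot be told apart from the labelled genotype.

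**Figure D1:**
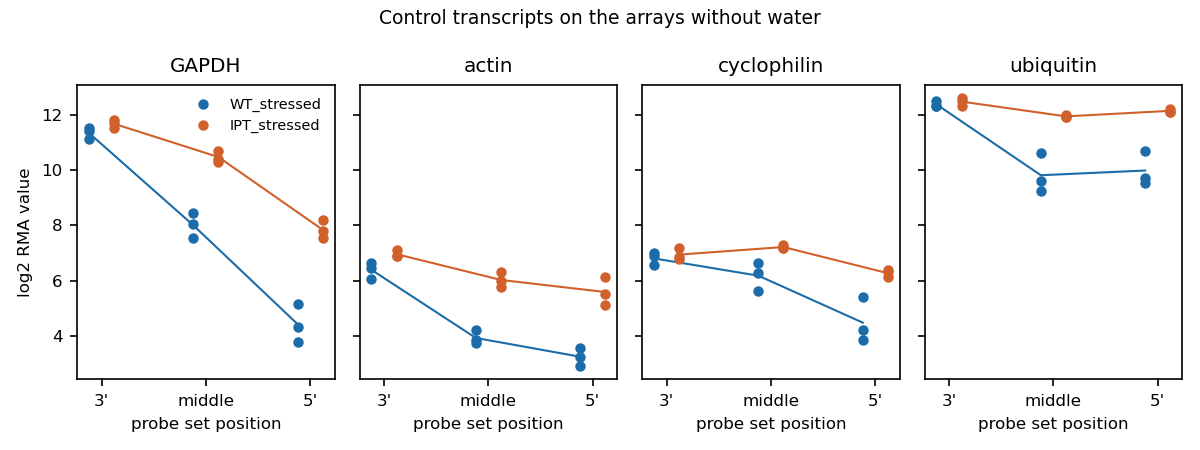
The log2 RMA value (y axis) of the 3', middle and 5' probe sets (x axis) of 4 control transcripts is shown for each WT_stressed and IPT_stressed array (points) with the group mean (lines). The groups lie close together at the 3' end and apart towards the 5' end, where GAPDH differed by 3.41.

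Leaf identity was checked against leaf marker genes. RBCS, the small subunit of Rubisco, averaged 13.25 in WT_stressed and 13.30 in IPT_stressed, and the chlorophyll-binding protein gene CAB2R averaged 13.49 and 13.27. Neither passed the test. Of the 16 leaf markers 7 were called, 2 higher (RA by 0.75 and LHCP by 0.46) and 5 lower. YAB6, a leaf polarity factor gene, was lower by 1.03 (adjusted p = 8.36e-04, limma), and the other 4 lower ones lay at background in both groups. Background, taken as the 95th percentile of 106 probe sets for foreign sequences, lay at 4.10 in WT_stressed and 3.34 in IPT_stressed. Of 17 panicle and floral markers 13 lay at background in both groups, as did 9 of 12 anther, 5 of 9 seed and 2 of 3 root markers. Other-tissue markers above background were called in both directions, also within a tissue. MADS4 and the seed marker RA5 were each lower by 1.15, while the seed marker GLUA2 was higher by 0.70. The anther marker GAMYB was higher by 1.29, while the anther marker PTC1 was lower by 0.52. The root marker Lsi1 averaged 6.12 and 6.71 (not called). MADS1, a floral organ gene, read 4.35, 4.62 and 3.83 in WT_stressed and 6.38, 6.37 and 6.62 in IPT_stressed, higher by 2.19 (SE 0.24, limma adjusted p = 5.68e-05).

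Across the transcriptome, limma called 26357 of 57194 probe sets (46.1%) at a Benjamini-Hochberg adjusted p under 0.05, 11065 higher in IPT_stressed (19.3%) and 15292 lower (26.7%). With a difference of at least 2-fold as well, 7328 were left (12.8%), 5601 of them higher (9.79%) and 1727 lower (3.02%). All 3 IPT_stressed arrays lay above all 3 WT_stressed arrays for 11984 probe sets, and the reverse held for 19689, together 55.4% of the total. With 1 probe set per gene, 8048 of 17905 genes were called (44.9%), 6309 higher (35.2%) and 1739 lower (9.71%), and the median difference was 0.31. These shares are the yardstick for every group of genes below.

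Direction followed brightness. Among 21971 probe sets with a mean under 3 over the 12 arrays, 2.18% were called higher and 34.9% lower, with a median difference of -0.31. Among 4243 probe sets with a mean of 5 to 6, 49.8% were called higher and 8.51% lower, with a median of 0.65. Of the 1739 genes called lower, 1101 lay at background in both groups. After quantile normalization, which gives all arrays the same distribution, 15409 probe sets were called (26.9%), 7421 higher (13.0%) and 7988 lower (14.0%). With a mean of 5 to 6, 23.3% were then called higher and 18.1% lower. With 1 probe set per gene, quantile normalization left 4794 genes called (26.8%), 3105 higher (17.3%) and 1689 lower (9.43%). When only probe sets with a mean of 5 or more were tested, 7634 of 15303 were called (49.9%), 43.7% higher and 6.18% lower. With both steps together 4853 of 15253 were called (31.8%), 17.0% higher and 14.8% lower. With array medians made equal, which moved the median difference by 0.23, 20880 were called (36.5%), 25.7% higher and 10.9% lower. Of probe sets with a mean of 5 or more, 1005 of 1006 called lower were called again after quantile normalization (99.9%), and 2823 of 6999 called higher (40.3%). No probe set was called in opposite directions before and after it. Of 1003 genes with 2 or more called probe sets, 27.0% had calls of both signs, so 1 probe set does not always speak for its gene.

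With the GAPDH 3' minus 5' difference of each array as a covariate, limma called 129 probe sets, 90 higher and 39 lower. None of the 57 genes followed through the alternatives, 24 named genes and 33 list members described below, kept its call in that fit, in which their standard errors were a median of 2.315 times as large. The difference was as large or larger in the same direction for 16 of the 57, such as PIP2-4 (4.44) and SAPK9 (-2.78), smaller in the same direction for 38, and of turned sign for 3, HEMB, HSP16.0 and RPL10A. The covariate itself separates the groups without overlap, so its effect and that of the labelled genotype cannot be told apart.

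**Figure D2:**
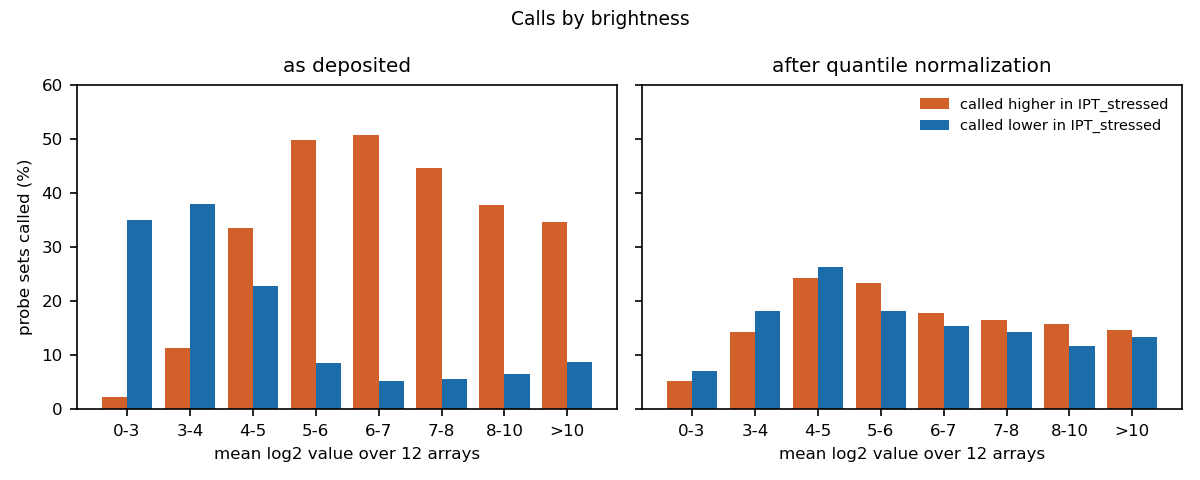
Percent of probe sets called higher or lower in IPT_stressed (y axis) by the mean log2 value over 12 arrays (x axis), as deposited and after quantile normalization. As deposited, 34.9% of the dimmest class were called lower and 50.6% of the class from 6 to 7 higher, and after quantile normalization these shares were 7.12% and 17.8%, beside 5.25% and 15.4% in the other direction.

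Of all probe sets, the 2 largest rises lay at 1 unnamed locus and the 2 largest falls at a blast resistance gene and at a probe set with no gene listed. The locus LOC4333004 on chromosome 3, which the annotation does not name, read 2.42, 1.84 and 3.08 in WT_stressed, at background, and 7.68, 8.47 and 7.98 in IPT_stressed. It was at least 15.4-fold higher (adjusted p = 4.08e-05, limma), and its 4 other probe sets gave differences from 0.97 to 5.23. Pi21 on chromosome 4, a proline-rich protein whose loss gives rice lasting resistance to blast fungus, read 10.01, 9.59 and 12.50 in WT_stressed against 3.46, 6.13 and 4.47 in IPT_stressed. It was lower by 6.01 (SE 0.96, adjusted p = 5.94e-04, limma). The groups are wide apart although each is spread, and a second Pi21 probe set gave -2.70. The probe set with no gene listed was lower by 5.70 (SE 0.84).

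Of 2458 genes with a protein name, 880 were called higher and 253 lower. Of these, 808 and 82 also had groups that did not overlap and a brighter group above background. The 12 largest rises and 12 largest falls among them are described below by role. All 24 were called in the same direction after quantile normalization and with array medians made equal.

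**Figure D3:**
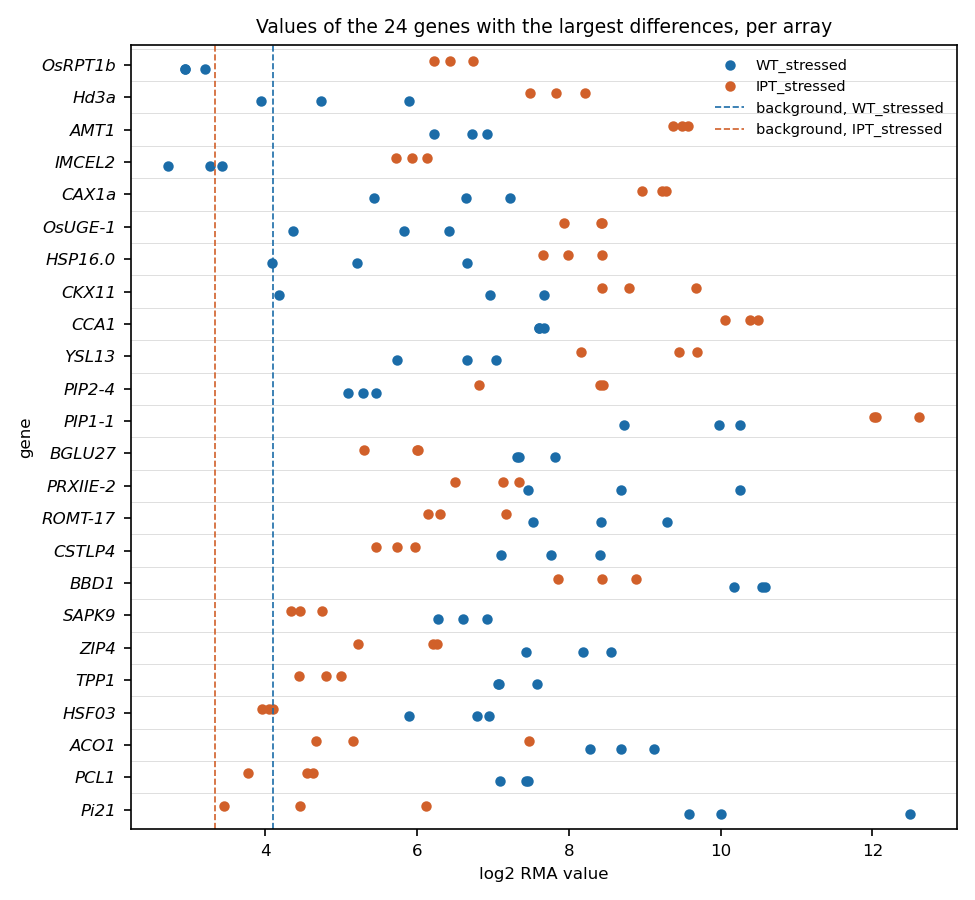
The log2 RMA value (x axis) on each array without water is shown for the 12 named genes with the largest rises and the 12 with the largest falls (y axis), with the background level of each group as a dashed line. No gene has overlapping groups, and Pi21 spans the widest gap, from a mean of 10.70 in WT_stressed to 4.68 in IPT_stressed.

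Cytokinin genes moved in both directions. Of 13 genes of cytokinin metabolism, 4 were called higher and 4 lower, with a median difference of 0.43. After quantile normalization 3 were called higher and 2 lower, with a median of 0.21. CKX11, a cytokinin dehydrogenase, read 6.97, 7.68 and 4.19 in WT_stressed and 8.44, 9.67 and 8.79 in IPT_stressed. The groups do not overlap, but WT_stressed replicate 3 is far below the other arrays of its group. CKX11 was higher by 2.69 (SE 0.69, adjusted p = 0.0088, limma), and by 1.64 without that array (adjusted p = 0.0054). Its second probe set gave 0.11. The other CKX genes measured were CKX4, with a difference of 1.06 (adjusted p = 0.0761), CKX3 at 0.43 (adjusted p = 0.198), and CKX5 and CKX1. CKX5 and CKX1 were called lower, but CKX1 lay at background in both groups and CKX5, at 3.88 and 3.37 on average, at background in WT_stressed and close to it in IPT_stressed. Neither was called after quantile normalization.

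Among LOG-family genes, which activate cytokinins, LOGL7 read 5.99, 5.48 and 5.48 in WT_stressed and 7.55, 8.11 and 7.39 in IPT_stressed. It was higher by 2.03 (SE 0.28, adjusted p = 2.41e-04, limma), with 0.62 for a second probe set. LOGL9 was higher by the same 2.03 with a wider error (SE 0.49, adjusted p = 0.00602), from 3.73, 4.24 and 5.16 to 7.05, 5.54 and 6.63. LOGL6 fell by 1.05 (SE 0.39, adjusted p = 0.0444), a call that was lost with array medians equal, with array weights, in the replicate block fit and without each of 4 of the 6 arrays in turn. LOG itself read 10.69 and 10.30 on average and did not pass (adjusted p = 0.167).

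Of 19 cytokinin signalling genes, 8 were called higher (42.1%) and 2 lower (10.5%), beside 35.2% and 9.71% of all genes. The list's median was 0.27, and -0.11 after quantile normalization, when 7 were called higher and 2 lower. AHP1, a phosphotransfer protein, read 5.41, 4.90 and 4.91 in WT_stressed and 7.05, 7.15 and 6.88 in IPT_stressed, a narrow range in both groups, and was higher by 1.96 (SE 0.21, adjusted p = 5.92e-05, limma), with 0.63 for a second probe set. The histidine kinase genes HK5 and HK4 were higher by 1.55 (SE 0.27) and 1.25 (SE 0.24), with 2.64 for a second HK5 probe set. HK4 was higher by 0.69 after quantile normalization. ORR1 was higher by 1.25 (SE 0.17, adjusted p = 1.94e-04) and by 0.79 after quantile normalization. Both genes called lower, RR5 and RR33, lay at background in both groups.

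Abscisic acid (ABA) is the main hormone of water deficit, and it acts by relieving SnRK2 kinases (SAPK in rice) from PP2C phosphatases. Of 68 genes of ABA metabolism and signalling, 37 were called higher (54.4%) and 6 lower (8.82%), with a median of 0.66. After quantile normalization 20 were called higher and 6 lower, with a median of 0.29. Most of these members are PP2C phosphatases named by sequence, not all of which act on ABA. OsPP2C10 read 7.60, 7.16 and 7.15 in WT_stressed and 9.28, 9.37 and 9.07 in IPT_stressed, higher by 1.94 (SE 0.19, adjusted p = 3.44e-05, limma). OsPP2C32 was at background in WT_stressed and at least 3.99-fold higher in IPT_stressed. PP2C68 was higher by 2.33 (SE 0.56, adjusted p = 0.00637). The kinase gene SAPK9 stood on the other side. It read 6.92, 6.28 and 6.61 in WT_stressed and 4.35, 4.75 and 4.47 in IPT_stressed, lower by 2.08 (SE 0.27, adjusted p = 1.73e-04).

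The 32 drought transcription factors, bZIP and DREB factors and the homeodomain factor Hox22 among them, had 13 members called higher (40.6%) and 3 lower (9.38%). The shares over all genes are 35.2% and 9.71%, and the list's median was 0.35. Hox22 read 5.67, 6.20 and 5.47 in WT_stressed and 8.04, 8.36 and 7.71 in IPT_stressed, a rise of 2.26 (SE 0.37, adjusted p = 6.5e-04, limma). BZIP23, an activator of ABA-dependent genes, was higher by 1.39 (SE 0.35, adjusted p = 0.00788), a call that was lost after quantile normalization (1.01, adjusted p = 0.0519). Of 9 LEA and dehydrin genes, which encode protective proteins of drying cells, 1 was called higher and 2 lower, and both that were lower lay at background in both groups. The higher one, Dhn1, differed by 0.86 (SE 0.32, adjusted p = 0.0453), while its 2 other probe sets gave -0.54 and -0.08. The call was lost after quantile normalization, with a minimum mean of 5, with array weights and without each of 5 of the 6 arrays in turn. Among 8 NAC factors 2 were called higher and 1 lower (median -0.07, above 0 with both other scalings), and among 6 WRKY factors 2 were higher and 0 lower (median 0.98).

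Water channel genes were divided by member. Of 24 aquaporins, 10 were called higher (41.7%) and 4 lower (16.7%), beside 35.2% and 9.71% of all genes (median 0.53). After quantile normalization the counts were 8 and 4. PIP1-1, a plasma membrane aquaporin, read 10.26, 9.98 and 8.73 in WT_stressed and 12.05, 12.62 and 12.02 in IPT_stressed. The difference of 2.57 passed the test (SE 0.35, adjusted p = 2.24e-04, limma). PIP2-4, of the same membrane, read 5.46, 5.30 and 5.09 against 8.45, 6.82 and 8.42, with IPT_stressed replicate 2 the lowest of its group but above every WT_stressed array. The gene was higher by 2.61 (SE 0.44, adjusted p = 8.35e-04). PIP2-1 was higher by 1.51 (SE 0.16), although its 2 other probe sets ranged from -1.56 to 1.64.

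The aquaporins that fell include 2 bright genes. TIP4-1, of the vacuolar family, read 9.93, 10.64 and 10.48 in WT_stressed and 8.72, 9.02 and 8.96 in IPT_stressed, lower by 1.45 (SE 0.32, adjusted p = 0.00399, limma). PIP2-7 fell by 0.93 (SE 0.18, adjusted p = 0.00205), from 12.64, 12.57 and 12.65 to 11.64, 11.79 and 11.64, with little spread in either group. The other aquaporins called lower, NIP4-1 and PIP2-8, lay at background in both groups.

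Heat shock genes, whose chaperones refold proteins under heat and other stress, had 18 of 47 members called higher (38.3%) and 2 lower (4.26%). The shares over all genes are 35.2% and 9.71%, and the list's median was 0.65. After quantile normalization the counts were 14 and 2. HSP16.0, a small heat shock protein, read 6.66, 5.21 and 4.09 in WT_stressed and 7.66, 8.44 and 7.996 in IPT_stressed. The WT_stressed arrays are far apart, and the difference of 2.71 has a wide error (SE 0.59, adjusted p = 0.00365, limma). HSF24, a heat stress transcription factor, was higher by 2.52 (SE 0.57), with 1.73 to 2.08 for its 2 other probe sets, and HSFA2D by 1.31 (SE 0.22). HSF03 went the other way. It read 6.96, 6.79 and 5.90 in WT_stressed and 3.96, 4.05 and 4.11 in IPT_stressed, lower by 2.51 (SE 0.33, adjusted p = 1.88e-04).

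Of 7 clock genes 1 was called higher and 2 lower. CCA1, the MYB factor that peaks around dawn in plants, read 7.61, 7.67 and 7.61 in WT_stressed and 10.39, 10.49 and 10.06 in IPT_stressed. It was higher by 2.68 (SE 0.27, adjusted p = 3.83e-05, limma), and a second, dimmer probe set gave -0.20. PCL1, related to the evening-phased factor LUX of Arabidopsis, read 7.46, 7.10 and 7.43 against 4.64, 3.78 and 4.55, lower by 3.01 (SE 0.40, adjusted p = 1.9e-04). PRR1, also evening-phased, fell by 0.74 (SE 0.21, adjusted p = 0.0147) and by 1.13 after quantile normalization, and its call was lost with array medians equal. The other 4 clock genes, GI, PRR37, PRR73 and PRR95, differed by -0.10 to 0.19 and did not pass. The hour of sampling is not given in the labels for either group, so sampling time and labelled genotype cannot be told apart for these genes.

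Flowering regulators had 8 of 14 members called higher (57.1%) and 1 lower (7.14%), beside 35.2% and 9.71% of all genes, with a median of 0.53. After quantile normalization 3 were called higher and 1 lower, when the shares of all genes were 17.3% and 9.43%. Hd3a, the florigen of rice that moves from leaf to shoot apex, read 5.90, 4.74 and 3.95 in WT_stressed and 7.495, 7.84 and 8.21 in IPT_stressed. The groups are clearly apart, and Hd3a was higher by 2.99 (SE 0.41, adjusted p = 2.22e-04, limma). Ehd3, which promotes flowering upstream of Hd3a, was at background in WT_stressed and at least 3.53-fold higher in IPT_stressed, with 0.25 to 1.40 for 2 other probe sets. DTH8, a long-day repressor of flowering, fell by 0.90 (SE 0.21, adjusted p = 0.00577), and by 1.45 after quantile normalization. The MADS-box list, which shares members with the flowering and floral lists, had 8 of 31 called higher and 6 lower (median 0.01).

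Nitrogen assimilation had 4 of 19 members called higher and 1 lower (median 0.39), shares below those over all genes. The ammonium transporter AMT1 read 6.93, 6.73 and 6.23 in WT_stressed and 9.58, 9.49 and 9.37 in IPT_stressed. It was higher by 2.85 (SE 0.36, adjusted p = 1.33e-04, limma), with 0.71 for a second probe set. AMT3-3, of the same transporter family, was higher by 1.69 (SE 0.27, adjusted p = 5.48e-04).

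Of 60 sucrose and starch genes, 20 were called higher (33.3%) and 10 lower (16.7%), beside 35.2% and 9.71% of all genes. The list's median was 0.23, and 7 of the 10 lower lay at background in both groups. HXK5, a hexokinase, read 6.48, 5.77 and 5.87 in WT_stressed and 8.07, 8.06 and 8.34 in IPT_stressed, higher by 2.12 (SE 0.22, adjusted p = 5.09e-05, limma). OsUGE-1, a UDP-glucose epimerase that links sugar metabolism to galactose for the cell wall, was higher by 2.72 (SE 0.44, adjusted p = 6.29e-04), from 6.42, 5.84 and 4.37 to 8.42, 7.93 and 8.44. TPP1, which makes trehalose from its phosphate, read 7.06, 7.09 and 7.58 in WT_stressed and 4.81, 5.001 and 4.45 in IPT_stressed. TPP1 was lower by 2.49 (SE 0.37, adjusted p = 3.92e-04), with no overlap between the groups. SWEET4, a sugar transporter, fell by 1.30 (SE 0.23, adjusted p = 0.00107).

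Of 13 photosynthesis genes 4 were called higher (30.8%) and 1 lower (median 0.22). Of 12 chlorophyll synthesis genes 4 were higher (33.3%) and 0 lower (median 0.45), beside 35.2% and 9.71% of all genes. After quantile normalization 2 and 0 photosynthesis genes were called higher and lower (median 0.02), and 1 and 0 chlorophyll synthesis genes (median 0.10). RA, Rubisco activase, read 12.62, 12.91 and 12.62 in WT_stressed and 13.46, 13.50 and 13.42 in IPT_stressed. RA was higher by 0.75 (SE 0.15, adjusted p = 0.00245, limma), and its 3 other probe sets gave 0.67 to 3.08. HEMB, an enzyme of the pathway to chlorophyll and haem, was higher by 2.05 (SE 0.51, adjusted p = 0.00708). None of the 6 genes of chlorophyll breakdown and senescence passed at an adjusted p under 0.05. Of these, NYC1, a chlorophyll b reductase, differed by 0.68 (adjusted p = 0.0501), SGR, the stay-green gene, by 0.29 (adjusted p = 0.72), and SAG12, a senescence-associated protease, by -0.26 (adjusted p = 0.286).

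Of 30 genes for ribosomal proteins and initiation factors, 12 were called higher and 0 lower (median 0.65), and 5 and 0 after quantile normalization. RPL10A read 9.69, 9.26 and 8.46 in WT_stressed and 10.34, 10.28 and 10.37 in IPT_stressed, higher by 1.19 (SE 0.28, adjusted p = 0.00525, limma), with -0.29 for a second probe set. OsRPT1b, an ATPase subunit of the proteasome's regulatory particle, had the largest rise of the named genes. It read 3.21, 2.94 and 2.95 in WT_stressed, at background, and 6.22, 6.74 and 6.43 in IPT_stressed, at least 5.15-fold higher (adjusted p = 2.05e-05). Proteolysis and autophagy genes had 5 of 18 members called higher and 2 lower (median 0.32).

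Genes of other hormones included ACO1, JAZ10 and SLR1, which fell, and JAR1 and ARF24, which rose. ACO1, the enzyme of the last step of ethylene synthesis, read 8.68, 8.28 and 9.13 in WT_stressed and 4.67, 7.48 and 5.16 in IPT_stressed. The groups do not overlap, though IPT_stressed replicate 2 lies far above its group, and ACO1 was lower by 2.93 (SE 0.70, adjusted p = 0.00585, limma). The 11 ethylene genes had 4 called higher and 2 lower (median 0.30), and 1 higher and 2 lower after quantile normalization (median -0.16). JAZ10, a repressor of jasmonate signalling, fell by 1.46 (SE 0.51, adjusted p = 0.0336), with -0.09 for a second probe set. The JAZ10 call was lost with array medians equal, with array weights and without each of 3 arrays, IPT_stressed replicate 2 among them (-0.92, adjusted p = 0.132). JAZ3 and JAZ4, of the same family, went the other way. They were higher by 1.29 (SE 0.22, adjusted p = 8.1e-04) and 1.16 (SE 0.22, adjusted p = 0.00153), with 0.12 for a second JAZ4 probe set. Both were called higher after quantile normalization too (0.77 and 0.86). JAR1, which joins jasmonate to isoleucine to make the active hormone, was higher by 2.23 (SE 0.30, adjusted p = 2.27e-04). Of 40 jasmonate genes 9 were called higher and 7 lower (median 0.08, and -0.02 after quantile normalization). SLR1, the rice DELLA repressor of gibberellin responses, fell by 1.20 (SE 0.28, adjusted p = 0.00546), and 2 of 16 gibberellin genes were called in each direction (median 0.34, and -0.13 after quantile normalization). Of 58 auxin genes 18 were called higher and 10 lower (median 0.10), ARF24, an auxin response factor, being higher by 2.12 (SE 0.22). After quantile normalization the auxin counts were 8 and 2. Of 17 brassinosteroid genes 5 were higher and 4 lower (median -0.04, above 0 with array medians equal). At background in both groups lay 9 of the 10 auxin genes and all 4 brassinosteroid genes that were lower.

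Among defence genes, NH1, the rice relative of the salicylic acid receptor NPR1, read 4.88, 5.35 and 4.63 in WT_stressed and 6.87, 6.31 and 6.85 in IPT_stressed. It was higher by 1.72 (SE 0.28, adjusted p = 6.85e-04, limma). BBD1, related to a nuclease of basal defence in Arabidopsis, read 10.55, 10.18 and 10.59 in WT_stressed and 8.43, 7.85 and 8.89 in IPT_stressed, and was lower by 2.05 (SE 0.28, adjusted p = 2.24e-04). Pathogenesis-related genes had 6 of 23 members higher and 5 lower (median -0.16, above 0 with array medians equal). The diterpenoid phytoalexin genes had 5 of 16 higher (31.2%, beside 35.2% of all genes) and 0 lower (median 0.57). ROMT-17, an O-methyltransferase, fell by 1.88 (SE 0.42, adjusted p = 0.00431), while its 3 other probe sets ranged from -1.80 to 1.03. The beta-glucosidase BGLU27 fell by 1.73 (SE 0.33, adjusted p = 0.00161).

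Metal and ion transporters included large differences of both signs. ZIP4, a zinc transporter, read 8.56, 8.19 and 7.44 in WT_stressed and 6.26, 6.22 and 5.23 in IPT_stressed, lower by 2.16 (SE 0.44, adjusted p = 0.00265, limma). YSL13, of the yellow stripe-like family of metal chelate transporters, read 5.74, 7.05 and 6.67 against 9.46, 8.16 and 9.69, higher by 2.62 (SE 0.55, adjusted p = 0.00287). CAX1a, a vacuolar cation and proton exchanger, was higher by 2.72 (SE 0.37, adjusted p = 2.46e-04), from 6.65, 7.23 and 5.44 to 9.23, 9.29 and 8.97. In all, 14 of 59 metal transport genes were called higher and 6 lower (median 0.10). Of 20 phosphate genes 4 were called in each direction (median 0.03, and -0.18 after quantile normalization). Of 81 calcium signalling genes 30 were called higher (37.0%) and 7 lower (8.64%), beside 35.2% and 9.71% of all genes (median 0.41).

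Antioxidant enzymes had 10 of 24 members called higher (41.7%) and 2 lower (8.33%), beside 35.2% and 9.71% of all genes (median 0.49). After quantile normalization the counts were 4 and 3. APX1, a cytosolic ascorbate peroxidase, read 9.04, 8.45 and 6.93 in WT_stressed and 10.19, 9.93 and 9.93 in IPT_stressed, higher by 1.88 (SE 0.41, adjusted p = 0.00368, limma). CatB, a catalase, fell by 0.70 (SE 0.17, adjusted p = 0.00638), although its 4 other probe sets ranged from -0.25 to 1.08. PRXIIE-2, a peroxiredoxin, fell by 1.81 (SE 0.56, adjusted p = 0.0216), and the call was lost when only the 6 arrays were fitted, without IPT_stressed replicate 2 (-1.56) and without WT_stressed replicate 3 (-1.08, adjusted p = 0.0557).

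Among the named genes outside the lists were IMCEL2 and CSTLP4. IMCEL2 lay at background in WT_stressed and was at least 3.56-fold higher in IPT_stressed, with 0.03 for a second probe set. CSTLP4 fell by 2.04 (SE 0.29, adjusted p = 2.95e-04, limma). Other named genes were described beside a list by role without being members of it, such as CAX1a, OsRPT1b, BBD1, ROMT-17 and BGLU27. Cell wall loosening genes had 3 of 30 members called higher and 8 lower (median -0.22, above 0 with both other scalings), 5 of the 8 at background in both groups. Cellulose and lignin genes had 9 of 48 higher and 8 lower (median -0.14, above 0 with array medians equal), and dividing cell genes 31 of 114 higher and 14 lower (median 0.12). The marker lists had 2 of 16 leaf, 2 of 17 panicle and floral, 1 of 12 anther, 2 of 9 seed and 0 of 3 root genes called higher, and 5, 6, 3, 4 and 0 called lower, with medians of -0.15, -0.28, -0.24, -0.47 and 0.00. After quantile normalization 1, 4, 1, 0 and 0 of them were called higher and 1, 1, 2, 3 and 0 lower. The leaf median lay above 0 with array medians equal and the anther median after quantile normalization. Of those called lower 4 leaf, 5 panicle and floral, 2 anther and 3 seed markers lay at background in both groups. In these bulk samples fewer cells of a type and less RNA per cell cannot be told apart.

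**Figure D4:**
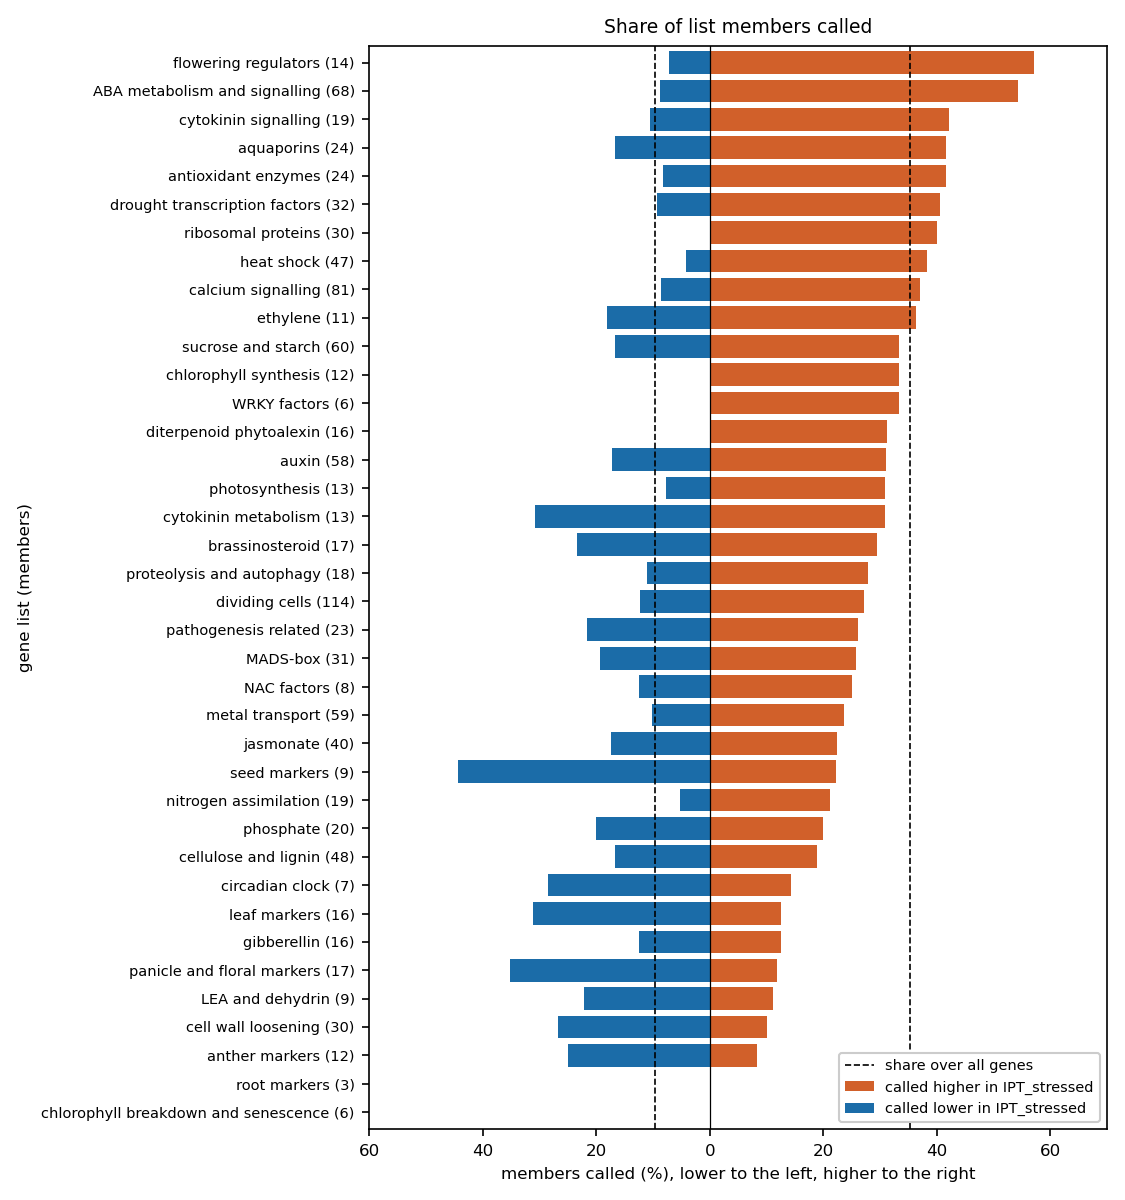
Percent of each list's members called lower (bars to the left) and higher (bars to the right) in IPT_stressed, with the number of members in brackets; dashed lines mark the shares over all 17905 genes, 9.71% lower and 35.2% higher. As deposited, flowering regulators (57.1%) and genes of ABA metabolism and signalling (54.4%) have the highest shares called higher. After quantile normalization 3 of 14 and 20 of 68 members were called higher, beside 17.3% of all genes. The marker lists, that of leaf included (12.5%), lie below the share called higher over all genes.

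The same labelled genotypes were set side by side under full watering, on the 6 other arrays. There, limma called 10981 probe sets (19.2%), 10.3% higher and 8.9% lower in IPT_watered. With 1 probe set per gene 3657 were called (20.4%), 2635 higher (14.7%) and 1022 lower (5.71%). Genes called higher in both water conditions numbered 2392, which is 37.9% of those called without water and 90.8% of those called when watered. For genes called lower the number was 550, or 31.6% and 53.8%, while 11 genes had calls of opposite sign. Across 17905 genes, which are not independent replicates, the 2 differences had a Pearson correlation of 0.746 and a Spearman correlation of 0.728. The arrays of the labelled genotypes also differed under watering in their Bio spike-ins, at 10.7 to 11.1 in WT_watered and 8.28 to 8.68 in IPT_watered. The GAPDH 3' minus 5' difference was 4.86 to 6.96 in WT_watered and 3.44 to 3.74 in IPT_watered. The part these measures play in the likeness of the 2 comparisons was not tested.

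All 24 named genes had a difference of the same sign when watered. CCA1 was higher by 2.49 and AMT1 by 2.59 in IPT_watered, and PCL1 and TPP1 were lower by 2.82 and 2.16, all 4 with adjusted p under 0.05 in limma. Others were called without water and missed the threshold when watered: HSP16.0 differed by 0.84 (adjusted p = 0.34), ACO1 by -1.33 (adjusted p = 0.202), LOGL9 by 0.35 (adjusted p = 0.643) and RPL10A by 0.22 (adjusted p = 0.608). The difference between the 2 water conditions was tested directly. Limma called 0 of 57194 probe sets for it (0.0%), with 8178 at an unadjusted p under 0.05 and a smallest adjusted p of 0.109. For HSP16.0 this difference was 1.87 (adjusted p = 0.341), for ACO1 -1.60 (adjusted p = 0.471) and for LOGL9 1.68 (adjusted p = 0.313). Limma's trend and robust options called 5 probe sets, and the fit without IPT_stressed replicate 2 called 40.

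**Figure D5:**
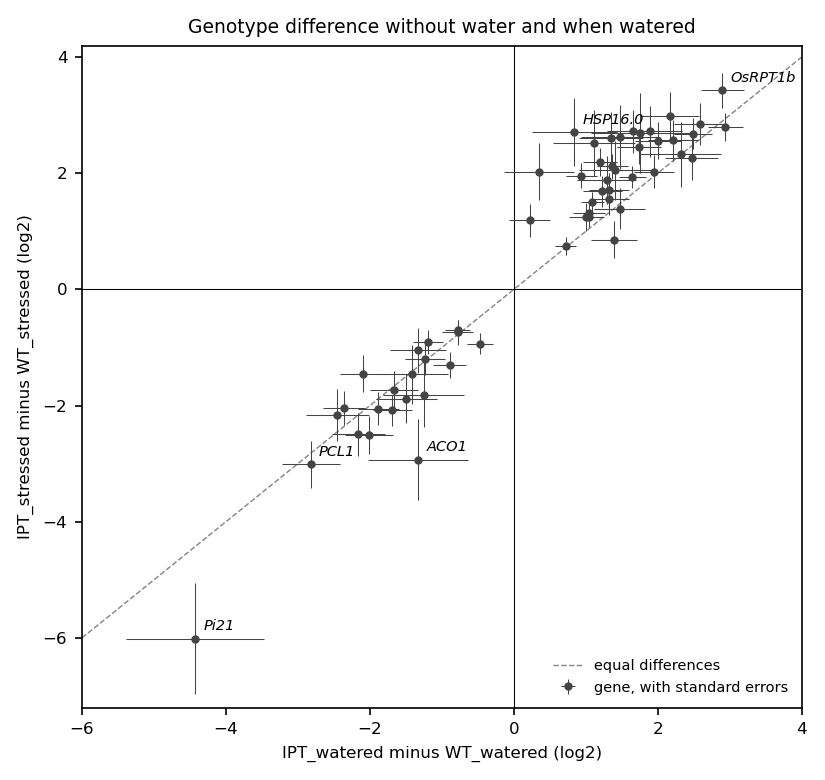
The difference between labelled genotypes without water (y axis, log2) against that under full watering (x axis, log2) for the 24 named genes and 33 list members followed through the alternatives, with standard errors as bars; the dashed line marks equal differences. All points lie in the quadrants of equal sign, and HSP16.0 and ACO1 are among those farthest from the line.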

How the data were processed

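Flag leaf RNA was hybridized to Affymetrix rice arrays, 1 array per sample. The values used are the authors' deposited log2 values, made with RMA according to the submitters' processing notes. This method combines the probes of a probe set on a log2 scale. The arrays as deposited share a mean but not a spread, so they do not follow one common distribution. The software is not given in the sources used here. Of 57381 probe sets, 123 controls and 64 reporters served as checks and 57194 were tested. The array annotation tied 22436 of them to 1 gene, 95 to several and 34663 to none listed. It covered 17905 genes, all found in the RefSeq table of ASM3414082v1, which was used for names. The brightest probe set by the mean over 12 arrays stood for a gene.

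The test was limma's (version 3.58.1, R 4.3.3, lmFit then eBayes), with 4 group means over 12 arrays and Benjamini-Hochberg adjustment over 57194 probe sets. No filter or further normalization was applied. Errors are moderated standard errors, and n is 3 arrays per group. No depth applies to arrays; their number limits the precision, and 3 arrays against 3 allow an exact two-sided p of 0.1 at the least. On simulated data the fit recovered 60% of 100 probe sets changed by 1 (log2) and 95% of 100 changed by 2, with 15 calls among the unchanged. The simulation drew independent noise, changed only these probe sets and had no shift tied to brightness. Its rates therefore need not hold for these arrays. Same-numbered replicates did not deviate together (correlations of -0.0109, 0.106 and 0.0717), so no pairing was used.

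Where 1 group lay at background, folds are lower bounds against that level (the 95th percentile of 106 foreign-sequence probe sets, which include the reporters). Named genes are 12 rises and 12 falls, those of largest size among called genes that have a symbol, groups without overlap and a brighter group above background. The 2 largest rises and falls of all probe sets, and members of lists, were added. Of the 33 list members followed through the alternatives, 19 are among the 4 of smallest adjusted p in a list and 14 were chosen after their values were seen. The other members given a value were also chosen after their values were seen. Some of them, such as JAR1, ARF24, YAB6 and MADS4, are among the 4 of smallest adjusted p in a list. The members and the 38 lists were chosen with earlier results of these data known, and lists carry no test. Lists were matched by gene symbol, and 111 matches to unrelated genes that share a symbol were dropped. Alternatives were quantile normalization, equal array medians, a minimum mean of 5, both together, only the 6 arrays, trend and robust options, array weights, a GAPDH covariate, the replicate block, the mean over probe sets of a gene and leaving out each of the 6 stressed arrays.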

Additional observations from a re-analysis of the deposited data

Results flagged for a closer look

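Some reporter probe sets for foreign sequences, which were not tested, lay above the background level of their group. They are among the 106 probe sets whose 95th percentile sets that level, so a few lie above it by construction. RPTR-Os-K01193-1_at averaged 8.98 in WT_stressed and 10.16 in IPT_stressed, and RPTR-Os-AF292559-4_s_at averaged 7.68 and 7.97. RPTR-Os-J01636-1_at averaged 6.37 and RPTR-Os-AJ002682-2_s_at 5.14 in WT_stressed, against a background level of 4.10, and they read 4.95 to 5.52 and 3.91 to 4.25 in WT_watered, against 3.62. In IPT_stressed they averaged at or below the level of 3.34, and no array read above 3.54. Under full watering RPTR-Os-K01193-1_at read 6.03 on WT_watered replicate 3 and 1.99 to 2.35 on the other 5 arrays. The sources used here do not say which of these sequences the PSARK::IPT plants carry.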

How the results depend on the processing

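The number of probe sets called for IPT_stressed against WT_stressed was 26357. It was 15409 after quantile normalization, 7634 with a minimum mean of 5, 4853 with both, 7328 with at least 2-fold difference as well, and 129 with the GAPDH 3' minus 5' difference as a covariate, which separates the groups without overlap. Fewer probe sets were tested under the minimum mean. The cause of the other shifts was not tested. The count was 20880 with array medians equal, 20932 with only the 6 arrays, 27057 with trend and robust options, 26126 with array weights, 26304 with the replicate block, and 19383 to 27565 without each of the 6 stressed arrays in turn. Of calls, 42.0% were higher, against 48.2% after quantile normalization, 70.3% with array medians equal, 87.6% with the minimum mean and 53.5% with both. Quantile normalization moved the median of all probe sets by 0.12 and equal medians by 0.23.

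For the difference between water conditions (genotype effect without water against genotype effect when watered) 0 were called, 5 with trend and robust options, and 0 to 40 without each of the same 6 arrays in turn. For IPT_watered against WT_watered the count of 10981 became 4248 with a minimum mean of 5, 3694 with quantile normalization too, 16912 with array weights and 39 with the GAPDH covariate. Of the 57 genes followed (24 named genes and 33 list members), all but 2 kept call and direction after quantile normalization, all but 3 with equal medians or array weights, and all but 1 in the replicate block fit, where LOGL6 lost its call. With the GAPDH covariate none of the 57 kept its call, and HEMB, HSP16.0 and RPL10A turned to -1.03, -0.77 and -0.082, while 38 differences were smaller and 16 as large or larger in the same direction (PIP2-4 4.44, ZIP4 -3.78, TPP1 -3.36, SAPK9 -2.78). The median of 10 of 38 lists changed sign after quantile normalization, of 8 with equal medians and of 1 with the mean over probe sets.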
